A study of Mus musculus with 6 samples.

Results

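Csf1, Il34, Csf2 and Csf3 encode the secreted growth factors that govern macrophages and granulocytes. They were taken by name, as 4 of the 35905 genes that the transcript tables could be assigned to. Their RNA was measured by mRNA sequencing in EO771-tdT-LM2 and EO771-tdT-Parental, a pair of mouse breast cancer cell lines (3 libraries each, LM2 and Parental below). Both lines carry the genotype label WT, and both were grown in RPMI medium with 10% fetal bovine serum for 48 h, up to about 75% confluence. The titles of the Parental libraries also carry the tag Ac6, which LM2 titles lack and whose meaning the labels do not give. The labels say neither how the LM2 line was derived nor whether the libraries of a line came from separate cultures, so p-values here measure the spread between these libraries, which may be technical. The study asked which transcripts differ in level between the lines.

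CSF1 and IL-34 share almost no sequence, yet both bind the receptor tyrosine kinase CSF1R on monocytes and macrophages and keep those cells alive and dividing. CSF2, also called GM-CSF, supports granulocytes, macrophages and dendritic cells, and CSF3, also called G-CSF, drives the production and release of neutrophils. In mammary tumours, cancer cells are a known source of these factors, and the level of the factors shapes how many macrophages and neutrophils enter a tumour. Csf1 RNA is spliced into forms that give a secreted protein or one held at the cell surface, whereas Csf2 and Csf3 RNAs are known for AU-rich elements that mark them for rapid decay.

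LM2 cells held more Csf1 and more Il34 RNA than Parental cells, 1.36-fold and 1.98-fold higher on the CPM scale, while Csf2 and Csf3 stayed at the detection limit in both lines. Depth ran from 33922699 to 38182191 estimated counts in LM2 libraries and from 36597892 to 45849019 in Parental libraries. Of 13247 genes that passed the filter on low counts, edgeR's quasi-likelihood test called 62.4% different at a Benjamini-Hochberg adjusted p below 0.05, with 31.4% higher and 31.1% lower in LM2. Both members that could be tested were higher, a count to be read against that background. The libraries of the 2 lines did not overlap for 67.0% of tested genes, and for 33.4% all LM2 libraries lay above all Parental libraries. In bulk RNA, fewer cells expressing a gene and less RNA per cell cannot be told apart.

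The cell type label was set against marker genes. Among 6 mammary epithelial markers, Krt8 averaged 568 ± 10.4 CPM in LM2 and 419.7 ± 6.61 CPM in Parental cells (SD, n = 3 each), whereas Krt18, Krt5 and Cdh1 stayed at or below 0.248 CPM in every library. Epcam averaged 15.0 ± 0.360 CPM in LM2 and 0.154 ± 0.0503 CPM in Parental cells. The epithelial label thus rested on few of these markers, above all on Krt8 in both lines. Krt14, a basal keratin, averaged 8.47 ± 0.571 CPM in LM2 and 1.11 ± 0.180 CPM in Parental cells. Macrophages and granulocytes also make these growth factors, so their markers were read too. The 15 macrophage markers summed to 4.20 to 5.19 CPM in LM2 and to 5.81 to 5.97 CPM in Parental libraries, and Adgre1, C1qa, C1qb and Aif1 were at 0 in all 6. The 3 that could be tested were low and moved both ways. Lyz2, a lysozyme, fell to 0.831 ± 0.0931 CPM in LM2, against 2.51 ± 0.162 CPM in Parental cells, and Cd14 fell to 0.652 ± 0.141 CPM in LM2, against 1.12 ± 0.177 CPM in Parental cells, with the Cd14 call lost without LM2 library 2 (adjusted p = 0.0974), Parental library 1 (0.0575) or Parental library 3 (0.0876). Cd68, a lysosomal protein, averaged 2.68 ± 0.247 CPM in LM2 and 1.75 ± 0.249 CPM in Parental cells and was called higher. The 10 granulocyte markers summed to 8.13 to 8.90 CPM in LM2 and to 6.64 to 6.91 CPM in Parental libraries, mostly from Cxcr2, which did not pass the test (adjusted p = 0.0563, or 0.0158 without LM2 library 1). S100a8, the one called granulocyte marker, averaged 1.08 ± 0.430 CPM in LM2 and 0.351 ± 0.101 CPM in Parental cells, while S100a9, Ngp and Retnlg were at 0 in all 6. The part of these low marker levels in the members' values was not tested.

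Sequences of 3 kinds bear on how these RNAs are made, spliced and cleared, and are shown so that the values can be read against them. The Csf1 promoter is the stretch from 250 bases before to 50 bases after the gene's start, on the minus strand at chr3:107760420-107760719 of GRCm38.p6, as given by RefSeq. Capitals mark matches, on either strand, to the GC box GGGCGG of Sp1 and to the NF-kB consensus.
Csf1 promoter: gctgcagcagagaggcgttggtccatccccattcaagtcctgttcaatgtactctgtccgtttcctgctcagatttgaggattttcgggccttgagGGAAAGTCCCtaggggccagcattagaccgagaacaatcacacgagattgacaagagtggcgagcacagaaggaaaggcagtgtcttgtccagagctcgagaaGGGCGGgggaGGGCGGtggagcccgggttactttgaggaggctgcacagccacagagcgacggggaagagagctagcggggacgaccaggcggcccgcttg
The 2 GC boxes began 51 and 41 bases before the start, and the NF-kB match began 154 bases before it. GGGCGG was found in 35.7% of 32851 mouse promoters of this length and the NF-kB consensus in 8.46%. The window held no TATAAA, found in 13.6% of promoters, and no TGANTCA, the AP-1 site, found in 7.81%. A match is a run of letters and was not tested for binding.

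Splice junctions separate the forms of each CSF1R ligand, and the bases around them, from GENCODE M21 transcripts, are shown with the exon after the junction in capitals.
Csf1-201, exon 5 to exon 6: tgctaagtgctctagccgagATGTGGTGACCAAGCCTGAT
Csf1-202, exon 5 to exon 6: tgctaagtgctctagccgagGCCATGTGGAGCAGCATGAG
Il34-201, exon 5 to exon 6: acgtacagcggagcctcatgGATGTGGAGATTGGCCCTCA
Il34-204, exon 5 to exon 6: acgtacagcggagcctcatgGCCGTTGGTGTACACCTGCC
Csf1-201 and Csf1-202 leave exon 5 at the same base, but Csf1-202 enters exon 6 885 bases further on, which shortens that exon to 131 bases, against 1016 bases in Csf1-201. Il34-204 carries an extra exon of 118 bases at the point where Il34-201 goes straight on.

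The third kind is the AU-rich stretch, whose core ATTTA, in capitals, is read by RNA-binding proteins that speed decay. For each RNA the 30 bases of the 3' UTR with the most copies are given, as DNA letters of the RNA strand from GENCODE M21.
Csf1-201 AU-rich stretch: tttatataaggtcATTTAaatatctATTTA
Csf2-201 AU-rich stretch: tttttaaatATTTATTTATTTATTTATTTA
Csf3-201 AU-rich stretch: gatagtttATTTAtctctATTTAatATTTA
Csf2 held 5 overlapping copies in its stretch, a density that 0.273% of 20848 genes with a 3' UTR reached. Csf3 held 3, reached by 2.59% of genes, and Csf1-201 held 2, reached by 18.9%. Over the whole 3' UTR, Csf2 had 9 copies, Csf3 had 6, Csf1-201 had 4 and Il34-201 had 1. At least 1 copy was present in 65.7% of genes, so the single copy of Il34 was common, whereas the repeated runs of Csf2 and Csf3 were not.

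Csf1 (ENSMUSG00000014599, chromosome 3) was the most abundant member. Its level, per length of transcript, was 84.7, 86.9 and 83.5 TPM in LM2 libraries, against 61.8, 62.4 and 68.9 TPM in Parental libraries. All LM2 libraries lay above all Parental libraries, and the spread within each line was smaller than the gap between the lines. Its means were 85.0 ± 1.67 TPM in LM2 and 64.3 ± 3.95 TPM in Parental cells (SD, n = 3 each). On the scale the test used, Csf1 averaged 200.5 ± 3.81 CPM in LM2 and 148 ± 1.29 CPM in Parental cells. The log2 fold change was 0.44 ± 0.03 (SE), a 1.36-fold higher level with a 95% interval of 1.31 to 1.40 (edgeR's quasi-likelihood test, Benjamini-Hochberg adjusted p = 1.35e-12). The difference was small in size and steady between libraries. Among all tested genes, 16.6% had a larger log2 fold change in the direction of LM2.

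Il34 (ENSMUSG00000031750, chromosome 8) was the less abundant CSF1R ligand in both lines and differed more between them. Its level was 41.7, 42.6 and 42.3 TPM in LM2 libraries, against 20.3, 20.8 and 21.2 TPM in Parental libraries. The groups were far apart, and within each line the libraries differed by less than 1 TPM. In CPM the LM2 libraries were less alike, at 27.8, 25.4 and 28.6, and the library with the highest TPM had the lowest CPM. The Il34 means were 27.3 ± 1.65 CPM in LM2 and 13.8 ± 0.421 CPM in Parental cells (SD, n = 3 each). The log2 fold change was 0.99 ± 0.06 (SE), which is 1.98-fold with a 95% interval of 1.83 to 2.14 (edgeR's quasi-likelihood test, Benjamini-Hochberg adjusted p = 2.01e-12). In the direction of LM2, 6.89% of all tested genes had a larger log2 fold change than Il34. In the authors' deposited table of log2 fold changes, Il34 stood at 0.99 and Csf1 at 0.38.

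**Figure D1:**
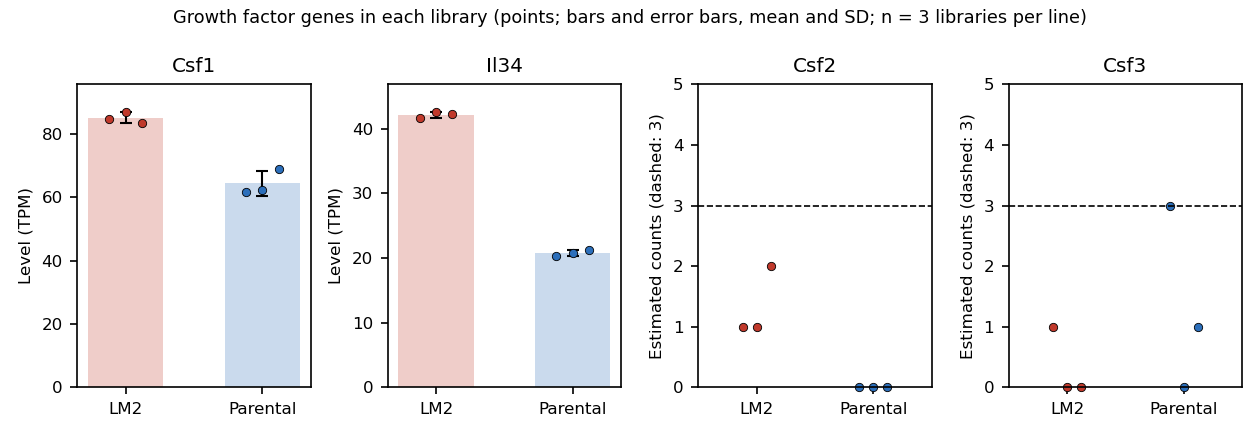
Level of Csf1 and Il34 in TPM and estimated counts of Csf2 and Csf3 in each library of the LM2 and Parental lines. Points are libraries, bars and error bars are the mean and SD of 3 libraries, and the dashed line marks 3 counts. The LM2 points of Csf1 and Il34 lie above all Parental points, while Csf2 and Csf3 never exceed 3 counts.

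Because both proteins act on the same receptor, their RNA was also read as a pair. Il34 made up 33.0%, 32.9% and 33.6% of the summed Csf1 and Il34 TPM in LM2 libraries, against 24.7%, 25.0% and 23.5% in Parental libraries. The ranges did not overlap. The mean share was 33.2 ± 0.382% in LM2 and 24.4 ± 0.779% in Parental cells (SD, n = 3 each), 8.76 percentage points apart, with an exact two-sided permutation p = 0.100, the smallest that 3 against 3 libraries allow. Csf1 remained the larger of the pair in every library, at 2.02 ± 0.0345 times the Il34 TPM in LM2 and 3.10 ± 0.133 times in Parental cells. The summed TPM of both ligands was 127 ± 1.94 in LM2 and 85.1 ± 4.35 in Parental cells. The log2 CPM of Il34 minus that of Csf1 was -2.88 in LM2 and -3.42 in Parental cells, 0.54 apart.

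Most Csf1 RNA was assigned to Csf1-201, a form of 4176 bases with a long exon 6 and a 3' UTR of 2111 bases. It stood at 66.3, 69.1 and 66.7 TPM in LM2 libraries, against 50.4, 47.8 and 45.8 TPM in Parental libraries, and the groups did not overlap. Csf1-203 encodes the same 552 codons but ends in a 3' UTR of 259 bases that holds no ATTTA. It averaged 8.55 ± 0.644 TPM in LM2 and 5.41 ± 0.502 TPM in Parental cells (SD, n = 3 each), again without overlap. Csf1-202, the form with the shortened exon 6 and 257 codons, is the kind that gives the cell-surface protein. Csf1-202 averaged 3.83 ± 0.782 TPM in LM2 and 3.55 ± 1.25 TPM in Parental cells, and its libraries overlapped between the lines. Among these 3 forms, Csf1-201 took 84.5 ± 0.775% of the TPM in LM2 and 84.3 ± 3.05% in Parental cells, and Csf1-202 took 4.79 ± 0.849% in LM2 and 6.24 ± 2.23% in Parental cells. The shares overlapped between the lines for each form. The deposited tables carry no error for how reads were split between forms, so these shares were not tested. A further transcript, Csf1-207, was at 5.70 TPM in Parental library 3 and at 0 in the other Parental libraries, and at 1.77, 0.00228 and 0 TPM in LM2 libraries. Parental library 3 was also the one with the highest Csf1 TPM of its line.

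Il34 RNA was assigned mainly to Il34-201, which encodes 235 codons, and to Il34-203, a processed transcript of 515 bases with no annotated coding sequence. Il34-201 stood at 21.6, 17.9 and 21.1 TPM in LM2 libraries, against 10.8, 10.7 and 11.1 TPM in Parental libraries. Il34-203 stood at 15.0, 15.8 and 15.2 TPM in LM2 libraries, against 7.92, 7.78 and 8.11 TPM in Parental libraries. Both were higher in every LM2 library than in any Parental library. Il34-203 took 36.3% of the gene's TPM in LM2 and 38.3% in Parental cells. Il34-205, another processed transcript, of 675 bases, stood at 3.62, 6.66 and 2.64 TPM in LM2 libraries, against 1.12, 1.99 and 1.28 TPM in Parental libraries, 10.2 ± 4.88% of the gene's TPM in LM2 and 7.05 ± 2.22% in Parental cells. A large share of the Il34 level per length was thus assigned to transcripts without an annotated coding sequence. Il34-204, with the extra exon and 219 codons, was scarce at 1.51, 2.26 and 3.27 TPM in LM2 libraries, against 0.430, 0.287 and 0.670 TPM in Parental libraries. Of the TPM of Il34-201 and Il34-204 together, Il34-204 took 6.53%, 11.2% and 13.4% in LM2 libraries, against 3.83%, 2.61% and 5.69% in Parental libraries. Those ranges were separate but close, and the share varied widely within LM2. When only transcripts with a full coding sequence were counted, the Il34 share of both ligands was 22.0 ± 2.06% in LM2 and 16.5 ± 0.651% in Parental cells, and the ranges still did not overlap.

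**Figure D2:**
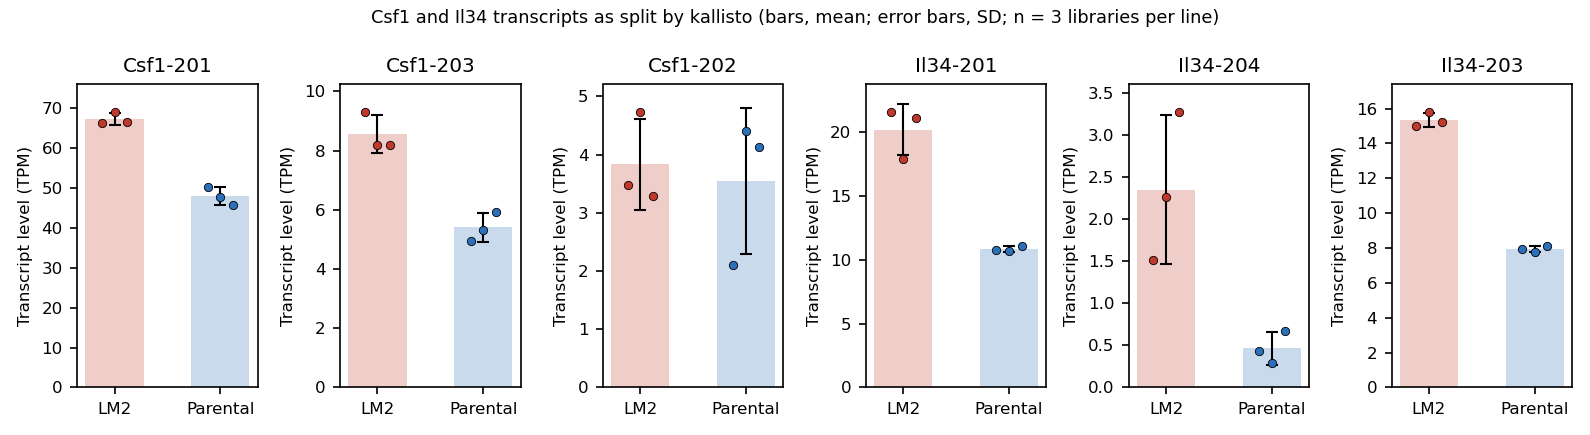
Level in TPM of the Csf1 and Il34 transcripts in each library of the LM2 and Parental lines. Points are libraries and bars and error bars are the mean and SD of 3 libraries. Csf1-201, Csf1-203, Il34-201, Il34-203 and Il34-204 lie higher in all LM2 libraries, and Csf1-202 overlaps between the lines.

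Sequence shared with other genes was limited for the detected pair. None of the 31-base words of the Csf1 transcripts occurred in another gene's transcripts, and 2.37% of those of Il34 did. Il34 overlaps Gm15894 and Gm15895 on the other strand, and Csf2 overlaps Gm12223. None of these had a transcript in the deposited tables, and the sources used here do not say how strand was handled, so reads from an opposite strand cannot be told apart.

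Csf2 (ENSMUSG00000018916, chromosome 11) was barely detected. It had 1, 1 and 2 estimated counts in LM2 libraries, against 0, 0 and 0 in Parental libraries. Csf3 (ENSMUSG00000038067, chromosome 11) had 1, 0 and 0 estimated counts in LM2 libraries, against 3, 0 and 1 in Parental libraries. Neither gene passed the filter on low counts. A count of 0 allows up to 3 counts, or 0.0786 to 0.0890 CPM in LM2 libraries and 0.0659 to 0.0826 CPM in Parental libraries, and no library of either gene was above 3 counts. No fold change is given, and a difference between the lines was not detectable at this depth. Without the filter, edgeR's quasi-likelihood test gave Benjamini-Hochberg adjusted p = 0.165 for Csf2 and 0.544 for Csf3. Of the words of Csf2, 9.22% occurred in other genes' transcripts, so even its few counts are uncertain. Neither gene was listed in the authors' deposited table. In both lines the order of levels was therefore Csf1, then Il34, with Csf2 and Csf3 at or below 0.133 TPM and not separable from each other.

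The receptors of the members were close to absent. Csf1r, the receptor of CSF1 and IL-34, averaged 0.114 ± 0.0551 CPM in LM2 and 0.129 ± 0.0513 CPM in Parental cells (SD, n = 3 each). Csf2ra, Csf2rb, Csf2rb2, Csf3r and Ptprz1, a phosphatase that binds IL-34 in human cells, did not exceed 0.260 CPM in any library and, like Csf1r, were not tested. The 1 of 7 genes tested was Sdc1, a surface proteoglycan that binds IL-34 in human cells. It averaged 258 ± 5.66 CPM in LM2 and 267 ± 4.27 CPM in Parental cells and did not pass the test (log2 fold change -0.05, adjusted p = 0.0926), though it was called lower without LM2 library 3 (adjusted p = 0.0245). Ligand RNA was thus measured in cells with hardly any RNA of Csf1r, Ptprz1 or the CSF2 and CSF3 receptors, while Sdc1 RNA was abundant.

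Of 17 other growth factors and cytokines of blood cells, 6 could be tested, and 2 were higher, 3 lower and 1 not called, with a median log2 fold change of 0.01. Over all tested genes the median was 0.00, with 31.4% higher and 31.1% lower. Il33, an alarmin cytokine, averaged 2.32 ± 0.332 CPM in LM2 and 0.159 ± 0.0678 CPM in Parental cells. Its adjusted p was 8.39e-10 (edgeR's quasi-likelihood test, Benjamini-Hochberg). Il4, the other gene called higher, was low, at 0.692 ± 0.171 CPM in LM2 and 0.307 ± 0.0575 CPM in Parental cells. The Il4 call was lost without LM2 library 1 (adjusted p = 0.0501). Kitl, the stem cell factor that binds KIT, fell to 36.6 ± 0.870 CPM in LM2, against 66.5 ± 3.89 CPM in Parental cells. The log2 fold change of Kitl was -0.86, but -0.49 with the offset for effective length, where it was still called. Flt3l, a growth factor of dendritic cell precursors, fell to 3.68 ± 0.241 CPM in LM2, against 5.76 ± 1.18 CPM in Parental cells. Mif, a cytokine that acts on macrophages, fell to 307 ± 6.77 CPM in LM2, against 432 ± 12.2 CPM in Parental cells. The lines thus differed in both directions across this group. Tnf averaged 1.70 ± 0.0206 CPM in LM2 and 1.20 ± 0.169 CPM in Parental cells and did not pass the test (adjusted p = 0.0578, or 0.0487 without Parental library 2). Il3 and Il1b were at 0 in all 6 libraries.

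Transcription factors described as activators of CSF genes formed a list of 18, of which 17 were tested. Of these, 12 rose, 3 fell and 2 did not pass the test, with a median log2 fold change of 0.36. Over all tested genes, 31.4% were higher and 31.1% lower, with a median of 0.00. Nfatc2, a calcium-dependent activator of cytokine genes in T cells, averaged 13.7 ± 0.351 CPM in LM2 and 6.29 ± 0.373 CPM in Parental cells, a 2.18-fold difference. Runx1, which binds the CSF2 promoter in human T cells, averaged 155 ± 0.352 CPM in LM2 and 87.7 ± 0.646 CPM in Parental cells, a 1.77-fold difference. Relb and Nfatc1 were 1.53-fold and 1.45-fold higher in LM2. Of the NF-kB genes on the list, Nfkb1, Nfkb2, Rela and Relb rose, while Rel fell to 7.66 ± 0.573 CPM in LM2, against 10.2 ± 0.573 CPM in Parental cells. Of the AP-1 genes on the list, Jun and Fosl1 rose, Junb fell to 41.0 ± 3.15 CPM in LM2, against 57.8 ± 1.84 CPM in Parental cells, and Fos did not pass the test. Sp1 fell by 0.17 on the log2 scale, a call lost with the offset for effective length (adjusted p = 0.0608). Cebpb averaged 244 ± 14.3 CPM in LM2 and 247 ± 2.06 CPM in Parental cells, with adjusted p = 0.690, or 0.0187 and lower without LM2 library 1. Cebpa was at 0 in all 6 libraries. Whether any of these factors acts on the members was not tested.

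All 10 genes for proteins that bind AU-rich or stem-loop elements of cytokine RNAs were tested, and 5 rose, 4 fell and 1 did not pass, with a median log2 fold change of 0.04. Both shares can be read against 31.4% higher and 31.1% lower over all tested genes. The fall of Tia1 rested on an adjusted p of 0.0456 and was lost or turned in 10 of 14 alternatives, which left 3 lower, among them DESeq2 (0.131) and the replicate block (0.0539). Zfp36l1, which binds ATTTA elements and promotes decay, fell to 62.0 ± 2.53 CPM in LM2, against 109 ± 4.43 CPM in Parental cells (log2 fold change -0.82 ± 0.04 SE, adjusted p = 4.26e-14). Its relatives went the other way by smaller amounts, with Zfp36 at 16.3 ± 1.48 CPM in LM2 and 13.5 ± 0.865 CPM in Parental cells, and Zfp36l2 with a log2 fold change of 0.10. Elavl1, which stabilises AU-rich RNAs, fell by 0.18 on the log2 scale, and Rc3h2, which binds stem-loop elements, rose by 0.17, a call lost with the offset for effective length (adjusted p = 0.0666). Zc3h12a, an endonuclease of cytokine RNAs, averaged 15.7 ± 0.923 CPM in LM2 and 15.8 ± 1.42 CPM in Parental cells.

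Surface forms of CSF1 are released by ADAM proteases. Of 5 sheddase genes and their regulators, 4 were tested, and 2 rose, 1 fell and 1 did not pass, with a median log2 fold change of 0.08, against 31.4% higher and 31.1% lower over all tested genes. Adam10 averaged 181 ± 3.09 CPM in LM2 and 155 ± 1.02 CPM in Parental cells. Adam17, the protease known to cleave cell-surface CSF1, averaged 101 ± 1.42 CPM in LM2 and 92.5 ± 0.454 CPM in Parental cells. Both steps were small next to that of Il34. Rhbdf1, which helps ADAM17 mature, fell by 0.13 on the log2 scale (adjusted p = 0.0127). That call was lost with the offset for effective length, at -0.02 and adjusted p = 0.788, and without Parental library 3 (0.0531). Rhbdf2 did not pass the test.

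Most genes that carry signals from these receptors passed the filter on low counts, with Cish the exception at 0.0195 ± 0.0169 CPM in LM2 and 0 in Parental cells. Of 11 JAK, STAT and feedback genes, 10 were tested, and 7 rose, 2 fell and 1 did not pass, with a median log2 fold change of 0.49. Among those that rose was Stat3, which was also counted among the activators of CSF genes. Over all tested genes, 31.4% were higher and 31.1% lower. Ptpn6, a phosphatase that damps cytokine receptors, averaged 16.5 ± 1.37 CPM in LM2 and 4.26 ± 0.540 CPM in Parental cells, a 3.90-fold difference. Jak1 averaged 362 ± 3.60 CPM in LM2 and 246 ± 5.90 CPM in Parental cells. Socs3, which is induced by STAT3 and blocks CSF3 receptor signals, averaged 62.2 ± 2.31 CPM in LM2 and 43.0 ± 2.23 CPM in Parental cells. Jak2, the kinase of the CSF2 and CSF3 receptors, was 1.44-fold higher in LM2, and Socs1 averaged 12.9 ± 0.396 CPM in LM2 and 12.7 ± 0.456 CPM in Parental cells without passing the test.

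**Figure D3:**
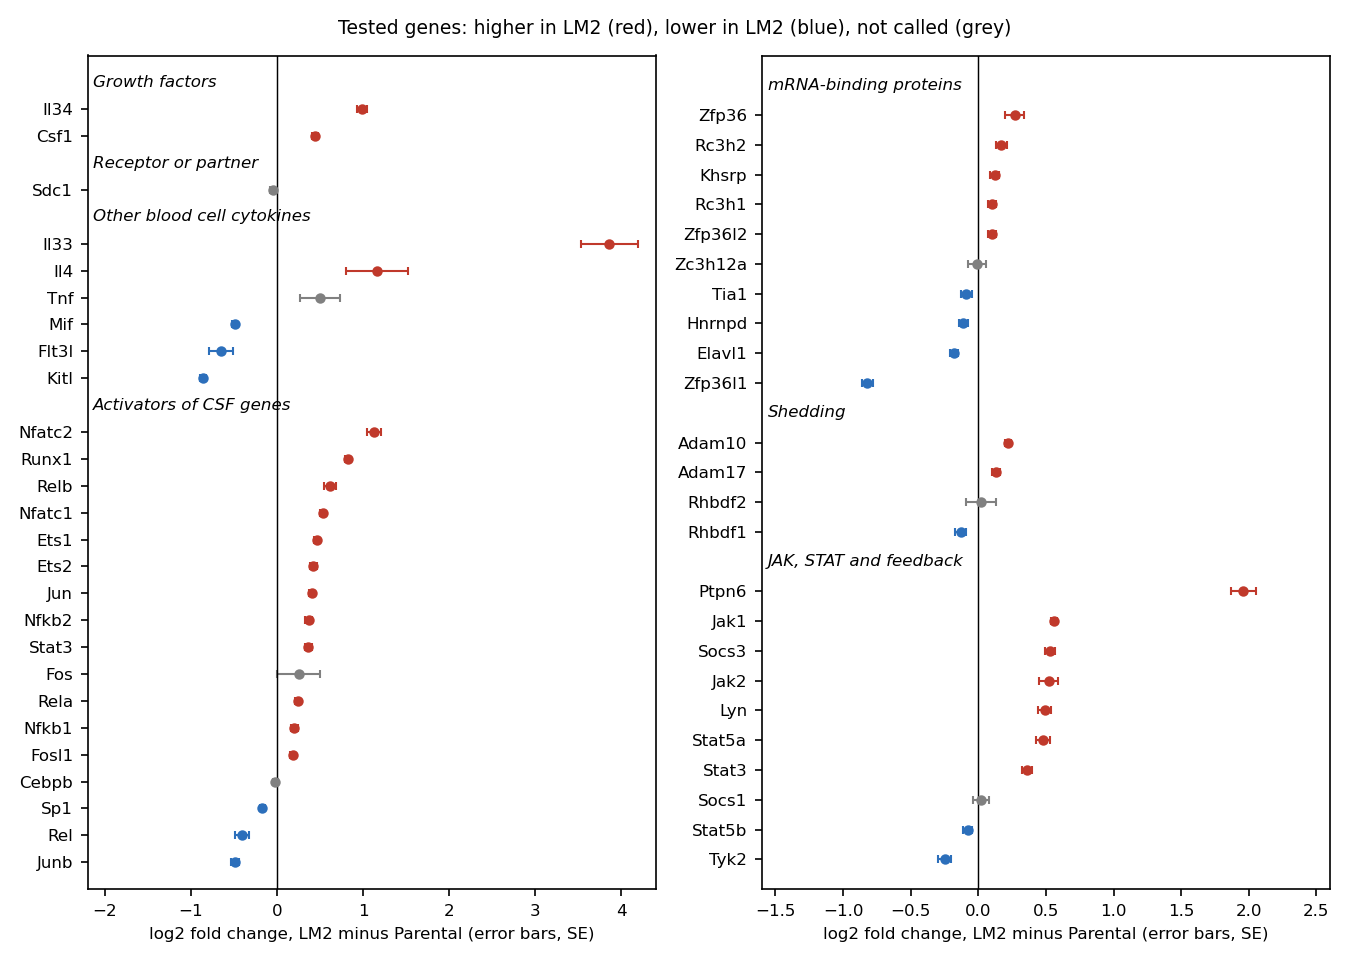
Log2 fold change, LM2 minus Parental, of the tested genes in each pathway list, with error bars for the SE and genes higher in LM2 in red, lower in blue and not called in grey. Csf1 at 0.44 and Il34 at 0.99 lie above 0, and the medians of the other lists run from -0.05 to 0.49. The lowest is that of receptors and binding partners, where only Sdc1 was tested, and the highest that of the signal transducers.

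Genes around each member and on its chromosome were read as a background. On chromosome 3, 617 other tested genes had a median log2 fold change of 0.03, and 16.4% of them had a larger one than Csf1. On chromosome 8, 701 other tested genes had a median of -0.31, with 453 lower and 96 higher in LM2, and 4.99% of them had a larger log2 fold change than Il34. Il34 was thus higher in LM2 on a chromosome where most tested genes were lower. The same held close by, as 8 of the 10 nearest tested genes were lower, among them its neighbour Sf3b3, a splicing factor subunit, at 362 ± 11.8 CPM in LM2 and 452 ± 1.92 CPM in Parental cells. Its other neighbour, Mtss1l, was higher, at 64.3 ± 3.40 CPM in LM2 and 39.8 ± 0.797 CPM in Parental cells. Around Csf1, 4 of the 10 nearest tested genes were higher and 1 was lower, on a chromosome with 32.6% higher and 23.7% lower, with Ahcyl1 next to it at 245 ± 1.67 CPM in LM2 and 219 ± 4.82 CPM in Parental cells. On chromosome 11, 32.0% of the other tested genes were higher and 30.3% lower. Around Csf2, 5 of 10 were higher and 3 lower, with P4ha2 at 0.45 and Acsl6 at -0.42 on the log2 scale beside it. Around Csf3, 3 of 10 were higher and 5 lower, with Psmd3 at -0.06 and Med24 at -0.22 beside it. The call of Psmd3 was lost in 8 of 14 alternatives, among them DESeq2 (adjusted p = 0.0750). Neighbours were drawn only from genes that passed the filter on low counts, so their detection beside Csf2 and Csf3 was set in advance.

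**Figure D4:**
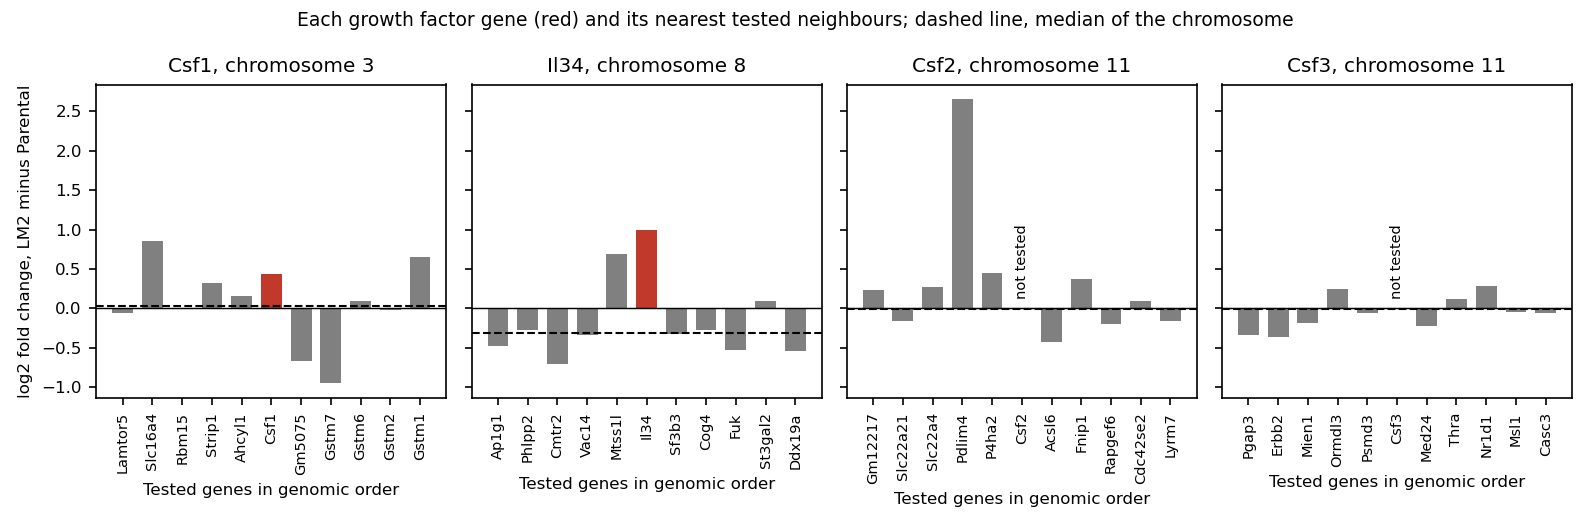
Log2 fold change, LM2 minus Parental, of the 5 nearest tested genes on each side of each member, in gene order, with the member in red where it was tested and the median of its chromosome as a dashed line. Il34 at 0.99 and its neighbour Mtss1l at 0.69 lie above 0 among genes that are mostly lower, and Csf1 at 0.44 lies among genes on both sides of 0.

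Genes with the most similar profile were sought among 9410 tested genes with at least 5 CPM, by the Euclidean distance between log2 CPM values, each minus its Parental mean, over the 6 libraries. Closest to Csf1 were Akr1a1, an aldo-keto reductase, at a distance of 0.0172, the keratin gene Krt8 at 0.0183 and Vcp, an ATPase that extracts proteins for degradation, at 0.0277. Closest to Il34 were Flot1, a membrane raft protein, at 0.0922, Mospd3 at 0.112 and Arhgef10l at 0.116. Within a distance of 0.2 lay 566 genes for Csf1 and 36 for Il34. The fold change and, relative to level, the spread between libraries were both larger for Il34. A fixed distance therefore cannot show which profile was the rarer.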

How the data were processed

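RNA of cultured EO771-tdT-LM2 and EO771-tdT-Parental cells (3 libraries each) was made into libraries with an mRNA kit and sequenced, per the labels. Groups follow the sample titles. Ac6, a tag of the Parental titles only, played no part in the grouping. The authors deposited estimated counts, TPM and lengths per transcript, made with kallisto 0.46.2 on GRCm39, per the submitters' processing notes. The deposited TPM values account for transcript length and depth. The authors' deposited table holds 11005 log2 fold changes per gene symbol. Its log base and direction, LM2 minus Parental, were read from its closeness to the values computed here (median absolute difference 0.0243, or 0.444 with the sign turned). Some named genes lay further apart than that median. Socs1 was at -0.62 in the authors' table and 0.02 here, Flt3l at -1.26 and -0.65, and Jak2 at 0.94 and 0.52. Why these values differ was not tested. The transcript set is not given in the sources used here.

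Transcripts were assigned to genes by identifier with GENCODE M21 (GRCm38), which matched 116408 of 117486 (99.1%). The other 1078 held 0.426% to 0.448% of a library's counts and were left out. As the builds differ, M21 gave names, chromosomes, gene order and transcript sequences only, and the promoter came from RefSeq on GRCm38.p6. Of the 4 members, Csf1 and Csf2 had an entry in the promoter table, and that of Csf1 is shown. kallisto splits reads between transcripts, so transcript levels are less certain than gene levels.

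Estimated counts were summed per gene, rounded, filtered with filterByExpr, scaled with TMM and tested with edgeR 4.0.16 in R 4.3.3 (robust quasi-likelihood fit, no covariate). Calls were made below an adjusted p of 0.05 (Benjamini-Hochberg over all tested genes). CPM are after TMM scaling, and levels of different genes were compared in TPM. Standard errors are approximations, the log2 fold change divided by the root of F, and intervals at the 95% level were made from them. The floor of 3 counts covers counting error only. Depth was 33922699 to 45849019 estimated counts per library. The procedure was tested on simulated data.

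The members and lists were chosen with earlier results of these data known. Named genes are the members, from each list the up to 4 called genes of greatest absolute log2 fold change that reached 1 CPM in either line, its most abundant tested gene not called, the nearest tested neighbours and the 3 most alike genes per tested member. Other list genes named with values were chosen after their values were seen. The alternatives tried were DESeq2 1.42.0, limma 3.58.1 (voom), other scaling, other filters, an offset for effective length, a replicate block, each library left out and, added after seeing the data, members counted over transcripts with a full coding sequence.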

Additional observations from a re-analysis of the deposited data

How the results depend on the processing

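Csf1 and Il34 kept their direction and call under all 15 alternatives, with a log2 fold change of 0.37 to 0.45 for Csf1 and 0.95 to 1.03 for Il34 and adjusted p up to 6.39e-05 and 7.37e-07. The lowest Csf1 value, 0.37, came with the offset for effective length. The ratio of Il34 means, LM2 over Parental, was 2.03 in TPM and 1.98 in CPM. Leaving out each library in turn gave 0.42 to 0.45 for Csf1, 0.95 to 1.03 for Il34, 7778 to 8258 genes called and 39 to 40 list genes called. Over all alternatives, 6985 to 8596 genes and 35 to 41 list genes were called.

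Counts of small lists moved by 1 or 2 genes. Receptors and binding partners lower in LM2 numbered 1 in place of 0 with no filter (Sdc1, adjusted p = 0.0199) and without LM2 replicate 3 (0.0245). Blood cell cytokines higher in LM2 numbered 1 in place of 2 without LM2 replicate 1. RNA-binding proteins higher numbered 3 in place of 5 with the length offset. Sheddase genes lower numbered 0 in place of 1 with that offset and without Parental replicate 3. RNA-binding proteins lower numbered 3 in place of 4 in 10 of 14 alternatives. Transducers lower numbered 1 in place of 2 with DESeq2 and without Parental replicate 2. Signs turned for 5 named genes near 0. Cebpb ran from -0.07, called lower, without LM2 replicate 1 to 0.01 without LM2 replicate 2, and Tia1 was at 0.04 with the length offset. Zc3h12a ran from -0.09 to 0.04 and Rhbdf2 from -0.14 to 0.10 over the runs that left out a library. Rhbdf2 was at -0.03 with the length offset. Socs1 was at 0.00 with no filter and ran from -0.01 to 0.05 over the runs that left out a library. The cause was not tested. Tnf was called without Parental replicate 2, with limma and with a 1 CPM filter. Among 69 list genes, neighbours and most alike genes, 912 values kept their direction and call, 33 lost and 7 gained a call.

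Replicate numbers did not pair the libraries, as the deviations of same-numbered libraries correlated at -0.08, 0.05 and 0.01. A fit with the replicate block gave 0.44 for Csf1 and 0.99 for Il34, and 8250 genes called. Depth limits Csf2 and Csf3, for which no difference at or below 3 counts per library can be seen.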
